A study of Mus musculus with 20 samples.

Results

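The genes described here are those whose estimated response to chronic restraint stress ran in opposite directions in female and male mice. They were chosen by the interaction contrast, the log2 fold change of susceptible over control females minus that of susceptible over control males, over all 20 libraries and among autosomal genes only. Of the 19214 genes in the count tables, 18455 were autosomal, and 14322 of these passed a filter on low counts and were tested. The 2 estimates had opposite signs for 7908 of them, 55.2% of those tested. The other 4133 autosomal genes had too few counts and were not tested.

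The tissue was the BNST (bed nucleus of the stria terminalis), which lies in the forebrain and links the amygdala with the hypothalamus. The groups were 5 libraries from susceptible females, 5 from control females, 5 from susceptible males and 5 from control males. The mice belong to an anxiety model made by chronic restraint, in which an animal is confined again and again. The labels state neither strain nor age, neither the length of restraint nor the sorting of mice as susceptible, and not whether the libraries are separate animals, so p-values measure only the spread between libraries. Library totals ranged from 14637636 to 17862840 counts. Gad1, which makes the transmitter GABA of most BNST neurons, lay between 457 and 893 CPM (counts scaled to a common library size) in every library. Calcr, Esr1, Prkcd and Nts, other marker genes read in these libraries, varied far more than Gad1. Calcr lay between 1.44 and 36.7 CPM, Esr1 between 2.91 and 21.9, Prkcd between 19.2 and 349.7 and Nts between 7.44 and 51.1. Prkcd is also a member of the thalamic marker list used below, so its range cannot be read as BNST content alone. Sst was steadier, between 81.1 and 132.6 CPM. Gad1 alone therefore does not show that the BNST content was even across libraries. Markers of neighbouring regions also varied far more than Gad1, as given below with the gene groups they accompany.

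Restraint raises glucocorticoids and drives BNST neurons, which are mostly GABAergic and help to set the length of anxious states. Parts of the nucleus differ between female and male rodents in size and in cells that carry sex steroid receptors. Stress can therefore be read in several gene groups: immediate early genes, which neurons switch on when they fire, clock genes, which glucocorticoids and light entrain, and myelin genes of oligodendrocytes. An interaction contrast asks of each gene whether the response differs between the sexes, which a call in one sex and none in the other does not show.

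No autosomal gene passed the interaction test. The count of genes with an adjusted p under 0.05 was 0 with females higher (0%) and 0 with females lower (0%), and the smallest adjusted p was 0.587 (edgeR quasi-likelihood test, Benjamini-Hochberg adjustment). With DESeq2, and with limma voom under quality weights, 0 genes were called as well. At an unadjusted p under 0.05 edgeR held 1185 genes (8.27%), of which 676 had females higher (4.72%) and 509 had females lower (3.55%), and 1130 had opposite signs in the 2 sexes (7.89%). DESeq2 held 1285 genes at that level and limma voom 2571. The edgeR count was 724 without susceptible male library 5, 731 without control female library 1, 780 without susceptible female library 5, 2232 without control female library 5 and 2242 without susceptible female library 4. Without the libraries over 100 CPM of Ttr, a choroid plexus transcript, it was 495 (3.45%) in the 13 left. Without those over 1 CPM of Pmch, a hypothalamic transcript, it was 546 (3.76%) in 15 libraries. Without libraries over either limit, a setting chosen after seeing the data, it was 1827 (12.7%) in 11 libraries. Of the female libraries, that setting leaves only control libraries 4 and 5 and susceptible libraries 2 and 5. All differences below are therefore estimates with their errors, and none is a called change.

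Across genes, 4285 estimates were positive in females and negative in males (29.9%), and 3623 were negative in females and positive in males (25.3%). The other 44.8% had the same sign. The female and male fold changes had a Pearson r of -0.207 and a Spearman rho of -0.185 across 14322 genes, which are not independent of each other. The 2 fold changes share no library. The estimated interaction had a median size of 0.16 on the log2 scale beside a median standard error of 0.17. With a region score as covariate, defined below from striatal and thalamic markers, 42.5% of genes had opposite signs and r was 0.0879. Leaving out single libraries moved r between -0.321 and 0.0477, and its sign turned without susceptible female library 5 (0.0328) and without susceptible male library 5 (0.0477).

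**Figure D1:**
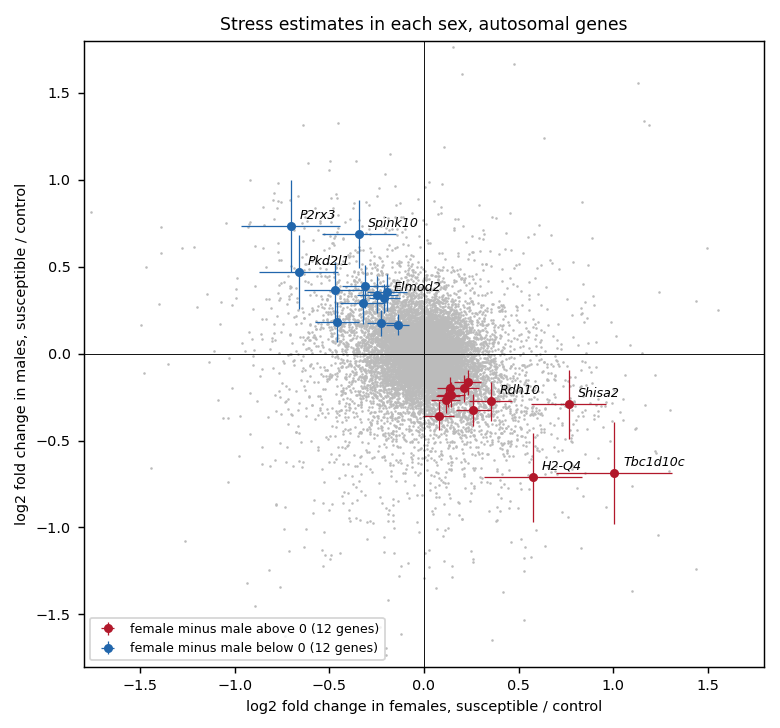
Log2 fold change of susceptible over control libraries in females (x axis) and males (y axis) for autosomal genes. Grey points are single genes, coloured points with bars of 1 SE are the 12 genes with the smallest interaction p in each direction, and 13 genes lie outside the plotted range of 1.8. The coloured genes were chosen among those with opposite signs in the 2 sexes, so their place at the upper left and lower right was fixed by that choice. Genes with a mean under 1 CPM and predicted gene models were passed over.

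An unadjusted p under 0.05 in both sexes was held by 30 genes with opposite signs (0.209%), where 5.8% of autosomal genes had one in females and 9.61% in males, beside 37 with the same sign (0.258%). The opposite set had 14 genes higher in females and lower in males (0.0978%) and 16 with the reverse (0.112%). The count of 30 moved to 17 without control female library 3 or control male library 2, and to 19 without control female library 1, control male library 5 or susceptible female library 5. It moved to 117 without control female library 5 and to 124 without susceptible female library 4. Without the Ttr libraries it was 13, and without libraries over either limit, with only the few female libraries named above, 147. Groups that did not overlap in females were found for 68 genes (0.475%) and in males for 345 (2.41%), and 1 gene, Ccdc92b, had groups that did not overlap in either sex in opposite directions (0.00698%).

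Ccdc92b (ENSMUSG00000069814, chromosome 11 from 74619605 to 74641516 on GRCm38) encodes a coiled-coil protein. Ccdc92b had 39.8, 38.4, 39.3, 38.3 and 49.2 CPM in susceptible females, against 32.7, 37.9, 33.6, 35.1 and 37.5 CPM in control females. In males it had 33.6, 39.1, 39.1, 39.2 and 35.9 CPM in susceptible and 40.6, 44.3, 42.99, 39.4 and 47.5 CPM in control libraries. Every susceptible female library lay above every control female library, and every susceptible male library lay below every control male library. The margins were narrow, since the lowest susceptible female library stood at 38.3 CPM beside 37.9 CPM in the highest control female library. Its log2 fold change, susceptible over control, was 0.21 ± 0.08 in females and -0.20 ± 0.08 in males, a difference of 0.41 ± 0.11. Its adjusted p was 0.587 in the edgeR quasi-likelihood test. The count of 1 was 0 without control female library 3 or 5, control male library 2 or susceptible female library 2 or 5, 2 without control female library 4, control male library 1 or susceptible female library 1, and 3 without susceptible female library 4. No gene had groups without overlap in the same direction in both sexes.

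The 12 genes with the smallest interaction p that were positive in females and negative in males, and the 12 with the reverse, are described next. Genes with a mean under 1 CPM and symbols of predicted gene models were passed over in this choice. All 24 had an adjusted p of 0.587 (edgeR, Benjamini-Hochberg), with interaction sizes from 0.30 to 1.69 on the log2 scale. Of the 24, 15 had an unadjusted p under 0.05 in both sexes. All 24 kept their direction and their opposite signs under 33 other settings or left-out libraries. They were chosen for this contrast, so their values are a description. Exons of 9 of the 24 share bases with another gene, among them 1286 bases of Tbc1d10c with AC109138.8 on the same strand, and reads there could be split by the counting.

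Mcm7 (ENSMUSG00000029730, chromosome 5 from 138164583 to 138172422) encodes a subunit of the helicase that unwinds DNA for replication. Mcm7 had 16.4, 18.2, 16.1, 14.03 and 17.3 CPM in susceptible females, against 13.8, 13.1, 12.7, 13.7 and 15.02 CPM in control females. Susceptible males had 15.4, 14.4, 14.8, 15.3 and 14.8 CPM, against 15.3, 19.6, 18.9, 16.98 and 22.9 CPM in control males. Only the lowest susceptible female library lay within the control female range, and control males were the most spread group. The log2 fold changes of Mcm7, susceptible over control, were 0.26 ± 0.09 in females and -0.33 ± 0.09 in males, 0.59 ± 0.13 apart. Its exons share bases with Ap4m1 and Cops6 on the other strand, and the strand setting of the counting is not given in the sources used here. Ercc1, a partner in a DNA repair nuclease, had 18.98 ± 1.64 CPM in susceptible and 16.2 ± 1.04 CPM in control females, and 17.9 ± 1.05 CPM in susceptible and 20.01 ± 1.22 CPM in control males (SD, n = 5 each). It shares 106 exonic bases with Cd3eap in the same way.

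Rdh10 (ENSMUSG00000025921, chromosome 1 from 16105774 to 16133734) oxidizes retinol, an early step toward retinoic acid. Rdh10 had 21.6, 19.8, 21.1, 17.9 and 15.1 CPM in susceptible females, against 12.8, 13.2, 17.4, 14.2 and 17.2 CPM in control females. In males it had 15.3, 14.6, 13.6, 15.7 and 14.5 CPM in susceptible and 14.4, 16.8, 19.2, 20.02 and 18.6 CPM in control libraries. Susceptible males were the tightest of its groups, and 1 susceptible female library, at 15.1 CPM, lay inside the control female range. On the log2 scale, susceptible over control, the estimates were 0.35 ± 0.11 in females and -0.27 ± 0.11 in males, with an interaction of 0.63 ± 0.16. Acbd4 (ENSMUSG00000056938, chromosome 11 from 103101682 to 103112200) binds acyl-CoA esters. Acbd4 had 32.7, 31.5, 30.7, 26.8 and 30.4 CPM in susceptible females, against 27.2, 28.1, 26.3, 27.3 and 30.2 CPM in control females. Susceptible males had 26.1, 29.9, 28.4, 29.7 and 27.7 CPM, against 32.5, 36.4, 33.1, 33.7 and 32.2 CPM in control males. In males its groups did not overlap, and in females 1 susceptible library fell among the controls. Its log2 fold change, susceptible over control, was 0.13 ± 0.06 in females and -0.24 ± 0.06 in males, a difference of 0.37 ± 0.09.

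Among these 12 genes, the 3 largest interaction estimates belonged to Tbc1d10c, H2-Q4 and Shisa2. Tbc1d10c, a GTPase-activating protein for Rab proteins that also restrains calcineurin, averaged 2.06 ± 0.6696 CPM in susceptible and 1.02 ± 0.383 CPM in control females, and 1.58 ± 0.521 CPM in susceptible and 2.56 ± 0.704 CPM in control males (SD, n = 5 each). Its female libraries did not overlap, and its log2 difference between the sexes was 1.69 ± 0.43. H2-Q4, a class I histocompatibility gene of a family with near-identical copies whose reads the counting could split, differed by 1.29 ± 0.36. Shisa2, an endoplasmic reticulum protein that holds back FGF and Wnt receptors, differed by 1.06 ± 0.28, and 8.43 CPM in control female library 5 stood above 5.07 CPM in the next of its group.

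Map3k1, Sh2b3, Med25 and Mbd6 had smaller differences. Map3k1, a kinase upstream of JNK, averaged 23.3 ± 2.14 CPM in susceptible and 22.1 ± 1.19 CPM in control females, and 21.2 ± 2.31 CPM in susceptible and 27.2 ± 2.27 CPM in control males (SD, n = 5 each). Its female estimate was 0.08 ± 0.08, within 1 SE of 0, while the male groups did not overlap. Sh2b3, an adaptor that dampens cytokine receptor signalling, followed with 0.11 ± 0.08 in females and -0.27 ± 0.08 in males. Med25, a subunit of the Mediator complex, had 0.14 ± 0.07 and Mbd6, a methyl-CpG-binding domain protein, 0.14 ± 0.07 in females. In males the estimate of Med25 was -0.24 ± 0.07 and that of Mbd6 -0.20 ± 0.07.

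In the other direction, Elmod2 (ENSMUSG00000035151, chromosome 8 from 83312632 to 83332486), which encodes a GTPase-activating protein for Arl2, had the smallest interaction p. Elmod2 had 28.2, 28.6, 27.1, 30.5 and 26.3 CPM in susceptible females, against 36.9, 31.1, 33.3, 31.6 and 29.97 CPM in control females. In males it had 32.02, 30.8, 26.8, 35.6 and 34.5 CPM in susceptible and 28.2, 23.1, 23.1, 28.1 and 25.5 CPM in control libraries. Susceptible males reached above every control male in 4 of 5 libraries, and susceptible females overlapped control females in 1 library only. The log2 fold changes of Elmod2, susceptible over control, were -0.21 ± 0.08 in females and 0.32 ± 0.08 in males, -0.53 ± 0.12 apart. Elovl6 (ENSMUSG00000041220, chromosome 3 from 129532355 to 129638495) elongates saturated and monounsaturated fatty acids. Elovl6 had 86.5, 81.5, 97.8, 105 and 80.6 CPM in susceptible females, against 125, 108, 121, 91.6 and 89.7 CPM in control females. Susceptible males had 109.8, 88.5, 98.9, 104 and 114 CPM, against 94.9, 76.7, 79.3, 85.9 and 70.7 CPM in control males. Both sexes overlapped, with 2 control female libraries inside the susceptible female range. On the log2 scale, susceptible over control, the estimates were -0.25 ± 0.11 in females and 0.34 ± 0.11 in males, with an interaction of -0.58 ± 0.15.

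Gjc3 (ENSMUSG00000056966, chromosome 5 from 137953461 to 137963098) encodes connexin 29, which in mice sits in the membranes of oligodendrocytes and Schwann cells. Gjc3 had 90.3, 97.2, 116, 105 and 86.7 CPM in susceptible females, against 135, 133, 140.3, 112 and 94.3 CPM in control females. In males it had 120.5, 83.2, 104, 101 and 101 CPM in susceptible and 95.1, 71.2, 86.3, 69.6 and 66.97 CPM in control libraries. Control females were the highest group and control males the lowest, while the susceptible groups of the 2 sexes lay close together. Its log2 fold change, susceptible over control, was -0.31 ± 0.12 in females and 0.39 ± 0.12 in males, a difference of -0.70 ± 0.17. Nectin3 (ENSMUSG00000022656, chromosome 16 from 46387706 to 46498525), a cell adhesion molecule of synaptic and other junctions, showed the same order. Nectin3 had 22.9, 25.2, 24.6, 27.2 and 22.4 CPM in susceptible females, against 30.1, 27.3, 31.3, 25.9 and 28.6 CPM in control females. Susceptible males had 27.5, 22.3, 25.8, 23.7 and 27.8 CPM, against 22.9, 23.9, 23.04, 21.5 and 21.1 CPM in control males. The log2 fold changes of Nectin3, susceptible over control, were -0.23 ± 0.08 in females and 0.18 ± 0.08 in males, -0.40 ± 0.11 apart.

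**Figure D2:**
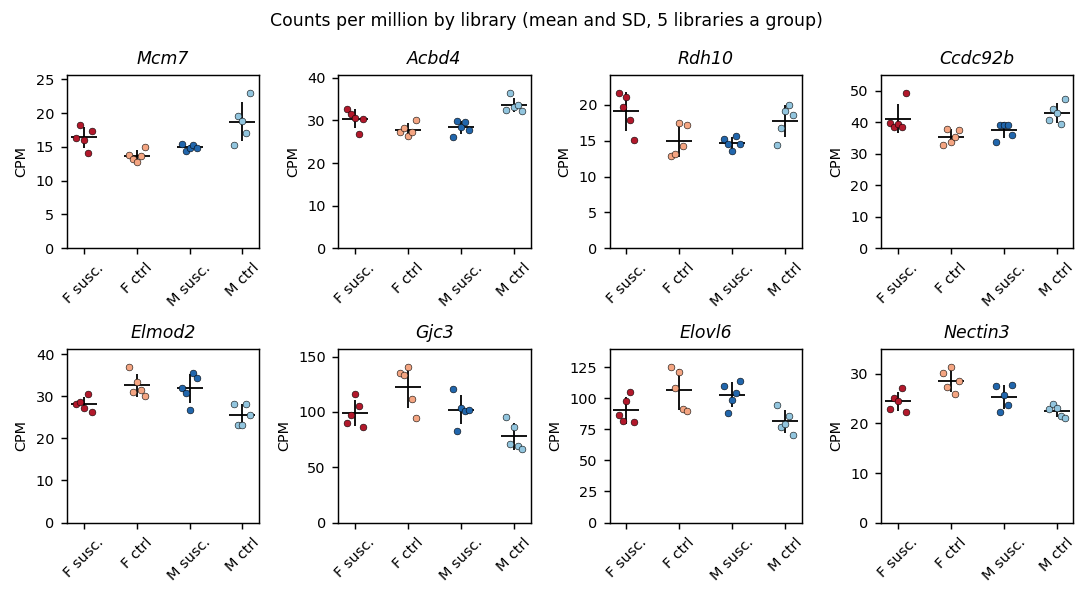
CPM (y axis, from 0) of 8 genes in each library, with 5 points, the mean and the SD for susceptible females, control females, susceptible males and control males from left to right. In the upper row the susceptible females lie above the control females and the susceptible males below the control males, and the lower row has the reverse, with the groups overlapping in most panels.

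Among these 12 genes, the 3 largest estimates belonged to P2rx3, Pkd2l1 and Spink10. P2rx3, an ATP-gated ion channel of sensory neurons, averaged 0.972 ± 0.283 CPM in susceptible and 1.58 ± 0.448 CPM in control females, and 1.41 ± 0.169 CPM in susceptible and 0.846 ± 0.304 CPM in control males (SD, n = 5 each), a difference of -1.44 ± 0.37. It shares exonic bases with Ssrp1 on the other strand. Pkd2l1, a TRP channel of neurons that contact the cerebrospinal fluid, differed by -1.13 ± 0.30, and control female library 1 had 5.78 CPM beside at most 3.81 CPM in the rest of its group. Spink10, of a family of protease inhibitors, differed by -1.03 ± 0.28.

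The estimates of the remaining genes of the 12 were smaller. Ikzf2, the zinc finger factor Helios, had -0.47 ± 0.17 in females and 0.36 ± 0.16 in males. Lingo2, a neuronal leucine-rich repeat protein, had -0.20 ± 0.11 in females and 0.35 ± 0.11 in males. Pip4k2a, a phosphoinositide kinase, had the smallest difference of the 24 at -0.30 ± 0.09, and the smallest error. Tmem200c and Tmem141, both predicted membrane proteins, differed by -0.64 ± 0.16 and -0.62 ± 0.17.

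The same contrast can be read as the sex difference in susceptible mice minus that in controls. Susceptible females and susceptible males differed at an unadjusted p under 0.05 in 8 of the 24 genes, against 6.19% of all autosomal genes, and control females and control males in 23 of the 24, against 19.3%. With adjustment by edgeR, 0 of the 24 were called between susceptible females and males, where 1 autosomal gene was called (0.00698%), and 6 between control females and males, where 68 were called (0.475%). Those 6 were Mcm7, Sh2b3, Gjc3, Nectin3, Tmem141 and Pip4k2a. Gjc3 was higher in control females by 0.66 ± 0.12 (adjusted p = 0.0288, edgeR) and differed by -0.04 ± 0.12 between susceptible females and males. The 24 were chosen on the same libraries, so these counts add no support. The difference of the 2 sex contrasts is the interaction itself, for which no gene was called.

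Oligodendrocyte and myelin genes had the most uniform opposite signs of the glial groups. Of 30 tested autosomal members, 29 were negative in females and positive in males, against 25.3% of all genes, and 1 was negative in both. Their median log2 fold change was -0.30 in females and 0.29 in males, and their median difference -0.62, against 0.02 over all autosomal genes. An unadjusted interaction p under 0.05 was held by 23 of the 30 (76.7%), all with females lower, against 3.55% of all genes, and 0 were called. In bulk tissue, fewer cells of this type, less RNA per cell and an uneven content of neighbouring tissue cannot be told apart.

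Among the members, Bcas1, which marks newly myelinating oligodendrocytes, had 161, 158, 198, 174 and 169.7 CPM in susceptible and 232, 258, 278, 192 and 155 CPM in control females. In males Bcas1 had 194, 154, 172, 157 and 189 CPM in susceptible and 161, 121, 167, 111 and 84.8 CPM in control libraries. The groups overlapped in both sexes, and control females were the highest group. On the log2 scale, susceptible over control, the estimates were -0.37 ± 0.16 in females and 0.42 ± 0.17 in males, with an interaction of -0.80 ± 0.23. Tspan2, a tetraspanin of myelin, differed by -0.64 ± 0.19, and Ermn, a cytoskeletal protein of myelinating cells, by -0.82 ± 0.25. Mobp, a structural myelin protein named after its values were seen, had -0.32 ± 0.14 in females and 0.33 ± 0.14 in males.

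The summed level of the 30 genes lay between 5886 and 8687 CPM (median 6883) in susceptible females and between 5932 and 10920 CPM (median 8642) in control females. It lay between 5951 and 8362 CPM (median 6826) in susceptible males and between 4868 and 6944 CPM (median 5163) in control males. Control female libraries 1, 2 and 3, which held over 1 CPM of Pmch, had 8642, 10920 and 10480 CPM. Control female libraries 4 and 5 had 7420 and 5932 CPM. The other libraries over that limit, susceptible female library 4 and susceptible male library 5, had 6883 and 8362 CPM. The susceptible groups of the sexes had close medians, with a median log2 difference of females minus males of -0.03, and the controls stood apart by 0.61. Between control females and males 3 of the 30 genes, Gjc3, Bcas1 and Ermn, were called higher in females (edgeR), as were 0.209% of all genes. Without the 5 libraries that hold over 1 CPM of Pmch, a hypothalamic peptide, which leaves 2 control female libraries, 17 of the 30 genes kept a negative female and a positive male estimate, and the median difference was -0.34. With the region score as covariate the numbers were 26 of 30 and -0.40.

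Other glial groups had smaller medians. For the sign counts here and below, 25.3% of all autosomal genes were negative in females and positive in males, and 29.9% the reverse. Of 13 oligodendrocyte precursor markers, 9 were negative in females and positive in males, with a median difference of -0.22. Gpr17, a receptor of cells about to myelinate, differed by -0.42 ± 0.17. Of 21 astrocyte markers, 12 had that pattern, with a median difference of -0.17 that was -0.04 without the Pmch libraries and -0.11 with the region score, and S100b, a calcium-binding protein of astrocytes, differed by -0.50 ± 0.18. Of 18 microglia markers, 4 had that pattern and 4 the reverse, with a median difference of 0.01. Cholesterol synthesis genes, which myelinating cells use heavily, had 12 of 22 members negative in females and positive in males and a median of -0.24. Hmgcs1, an early enzyme of that pathway, differed by -0.67 ± 0.27. Without the Pmch libraries the cholesterol median was -0.05.

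**Figure D3:**
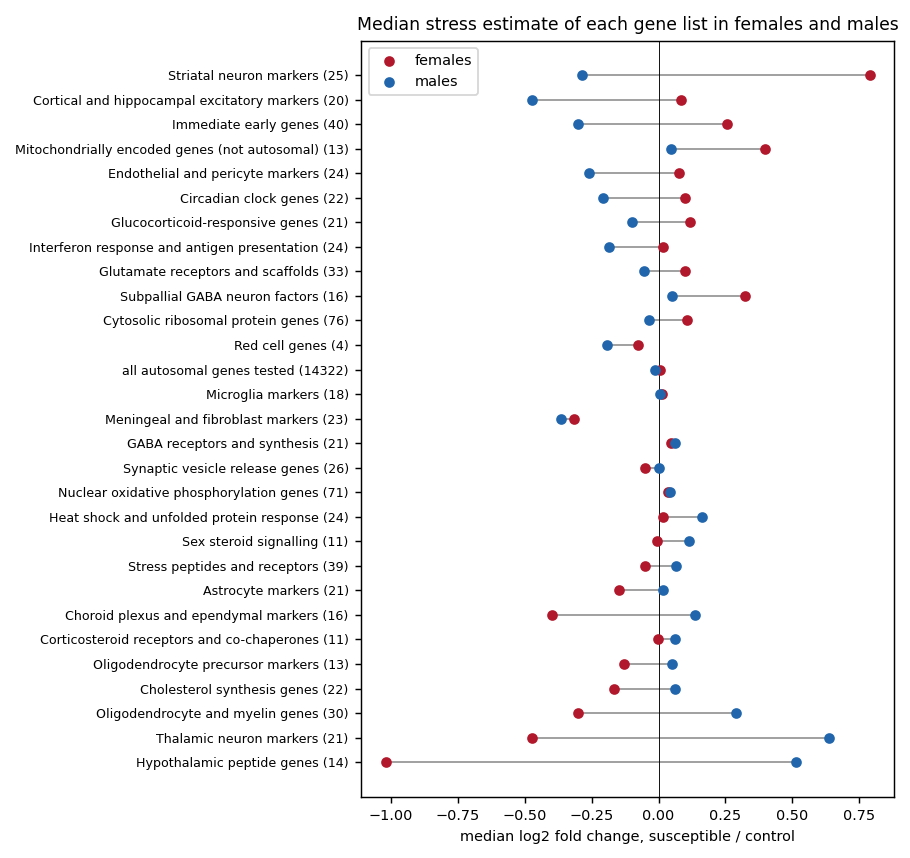
Median log2 fold change of susceptible over control libraries (x axis) in females (red) and males (blue) for each gene list, with the number of tested members in brackets, ordered by the median difference between the sexes. Striatal, immediate early and clock genes have the female median above 0 and the male median below 0, myelin, thalamic and hypothalamic genes the reverse, and the median over all autosomal genes lies next to 0 in both sexes.

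Immediate early genes, which neurons transcribe within minutes of firing, had the opposite pattern to myelin. Of 40 tested members, 35 were positive in females and negative in males, against 29.9% of all genes. Their median log2 fold change was 0.26 in females and -0.30 in males, and the median difference 0.64. An unadjusted interaction p under 0.05 was held by 7 of the 40 (17.5%), all with females higher, against 4.72% of all genes, and 0 were called. The list mean of log2 CPM was 4.54 ± 0.33 in susceptible and 4.17 ± 0.45 in control females, and 4.29 ± 0.12 in susceptible and 4.58 ± 0.25 in control males (SD, n = 5 each). Groups overlapped in both sexes, and control female library 5 stood at 4.91 beside 3.71 to 4.16 in the rest of its group. Susceptible female library 5 was the highest of all at 5.01, beside 4.09 to 4.66 in the rest of its group. These libraries and control male library 5, at 4.92, also had the most Slc17a7, a cortical and hippocampal marker. It stood at 632, 719 and 611 CPM in that order, and a link was not tested.

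The members with the smallest interaction p were Klf2, Dusp5, Per1 and Npas4. Dusp5, a phosphatase that switches off ERK in the nucleus, had 12.2, 13.7, 14.4, 6.96 and 14.8 CPM in susceptible and 7.82, 9.11, 6.63, 7.25 and 13.3 CPM in control females. In males Dusp5 had 10.3, 9.02, 7.46, 7.84 and 9.95 CPM in susceptible and 7.57, 12.4, 7.79, 11.7 and 16.2 CPM in control libraries. Susceptible female library 4 and control female library 5 lay with the other group of their sex, and the male groups overlapped. Its log2 fold change, susceptible over control, was 0.49 ± 0.23 in females and -0.32 ± 0.23 in males, a difference of 0.81 ± 0.33. Npas4, a transcription factor that answers calcium entry in neurons, differed by 0.94 ± 0.39, and Klf2, a factor also made by endothelium, by 0.66 ± 0.26. Arc, Nr4a1 and Fos, named after their values were seen, differed by 1.27 ± 0.59, 1.06 ± 0.51 and 0.44 ± 0.34.

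The median of the immediate early list was 0.37 with 33 of 40 genes positive in females and negative in males without the Pmch libraries, and 0.36 with 30 of 40 with the region score as covariate. Without the Ttr libraries it was 0.50, and without libraries over either limit 0.55.

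Clock genes leaned the same way as immediate early genes. Of 22 tested members, 15 were positive in females and negative in males, 3 had the reverse, and the median difference was 0.28, from 0.10 in females and -0.21 in males. An unadjusted interaction p under 0.05 was held by 11 of the 22 (50%), all with females higher, against 4.72% of all genes, and 0 were called. Per3, a period gene of the repressor arm, had 53.5, 77.3, 58.6, 67.3 and 65.8 CPM in susceptible and 52.3, 63.6, 56.98, 62.8 and 70.2 CPM in control females. In males Per3 had 65.5, 59.7, 71.2, 73.7 and 54.01 CPM in susceptible and 74.02, 79.1, 75.1, 88.2 and 96.8 CPM in control libraries. The male groups did not overlap, while only 1 susceptible female library lay above the control female range. The log2 fold changes of Per3, susceptible over control, were 0.08 ± 0.11 in females and -0.35 ± 0.11 in males, 0.43 ± 0.15 apart.

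Per1, which is both a clock and an immediate early gene and answers glucocorticoids, had 139, 171, 144, 118 and 198 CPM in susceptible and 97.6, 120.5, 99.7, 113 and 188 CPM in control females. In males Per1 had 142, 132, 129, 124 and 115 CPM in susceptible and 127, 189, 170.4, 114 and 188 CPM in control libraries. Both sexes overlapped, with control female library 5 among the highest of all. On the log2 scale, susceptible over control, the estimates were 0.32 ± 0.18 in females and -0.30 ± 0.18 in males, with an interaction of 0.61 ± 0.25. Cry2, a repressor of the clock, differed by 0.38 ± 0.14, and Bhlhe41 and Ciart, further repressors, by 0.29 ± 0.11 and 0.53 ± 0.20. Of genes named after their values were seen, Dbp, an output factor under E box control, differed by 0.63 ± 0.26, and Arntl, the activator, by -0.04 ± 0.20. The list median stayed between 0.20 and 0.33 under all settings and left-out libraries. The labels give no time of day for tissue collection.

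Promoter windows show what the immediate early and clock genes carry beside their opposite estimates. The windows, from RefSeq on GRCm38.p6, run from 250 bases before to 50 after an annotated start, and were at hand for 31 of the 40 immediate early and 18 of the 22 clock genes. The core of the cAMP response element (TGACGT, both strands), which CREB binds in active neurons, was in 38.1% of 42 immediate early windows and 7.41% of 27 clock windows, against 10.5% of 14288 windows of tested autosomal genes. The E box of the clock activators (CACGTG, its own reverse complement) was in 22.2% of the clock windows and 19% of the immediate early windows, against 9.27%. The 2 motifs can share at most their last or first 2 bases. A match is a description of sequence and not a site shown to be used. By gene, 14 of the 31 immediate early genes had the response element and 5 of the 18 clock genes the E box. Of 11149 tested autosomal genes with a window, 1377 had the response element and 1242 the E box. Windows are shown for the 2 members of each list with the smallest interaction p (edgeR) among those with the motif. Klf2 was passed over because it has no response element, and Per3 and Cry2 because they have no E box.

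Shown for the immediate early genes are Dusp5 (chr19:53528895-53529194, plus strand) and Per1 (chr11:69099902-69100201, plus strand), with the response element in capitals on either strand, read 5′ to 3′ along the gene.
Dusp5: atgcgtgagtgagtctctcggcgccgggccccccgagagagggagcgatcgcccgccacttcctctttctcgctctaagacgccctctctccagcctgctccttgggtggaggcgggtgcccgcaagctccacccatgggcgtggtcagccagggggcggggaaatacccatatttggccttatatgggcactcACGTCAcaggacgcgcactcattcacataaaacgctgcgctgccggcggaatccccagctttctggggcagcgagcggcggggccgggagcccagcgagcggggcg
Per1: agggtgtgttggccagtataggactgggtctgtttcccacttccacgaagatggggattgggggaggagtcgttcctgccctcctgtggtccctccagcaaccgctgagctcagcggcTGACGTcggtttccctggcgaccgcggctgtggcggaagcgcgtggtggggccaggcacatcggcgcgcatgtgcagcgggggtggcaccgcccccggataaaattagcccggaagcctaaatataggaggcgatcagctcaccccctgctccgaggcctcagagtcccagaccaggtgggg
For the clock genes the windows of Bhlhe41 (chr6:145865371-145865670, minus strand) and Ciart (chr3:95882179-95882478, minus strand) are shown with E boxes in capitals, of which Ciart has 3.
Bhlhe41: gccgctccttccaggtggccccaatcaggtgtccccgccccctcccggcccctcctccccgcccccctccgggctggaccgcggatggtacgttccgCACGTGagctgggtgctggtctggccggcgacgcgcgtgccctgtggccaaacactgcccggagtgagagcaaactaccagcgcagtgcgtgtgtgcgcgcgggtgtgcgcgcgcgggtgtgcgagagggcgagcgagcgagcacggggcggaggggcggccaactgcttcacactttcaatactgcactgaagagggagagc
Ciart: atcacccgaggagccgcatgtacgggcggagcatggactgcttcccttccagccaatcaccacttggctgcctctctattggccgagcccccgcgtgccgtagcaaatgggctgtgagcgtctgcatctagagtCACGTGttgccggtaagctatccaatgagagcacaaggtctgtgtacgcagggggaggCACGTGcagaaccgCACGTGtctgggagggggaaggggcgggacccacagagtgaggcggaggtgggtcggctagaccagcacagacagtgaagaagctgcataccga

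Markers of the regions around the BNST varied more between libraries of a group, in all 4 groups, than the immediate early, clock and myelin lists did. Striatal neuron markers, from the caudate putamen and accumbens beside it, were positive in females and negative in males for 25 of 25 members, against 29.9% of all genes, with medians of 0.79 and -0.29. Their summed level lay between 2993 and 11200 CPM in susceptible and between 1462 and 6287 CPM in control females, and between 3088 and 8320 CPM in susceptible and between 5295 and 9568 CPM in control males. All 25 were detected in every library. Foxp1, a transcription factor of striatal projection neurons, had 88.2, 206, 123, 69.1 and 284 CPM in susceptible and 56.7, 93.3, 75.2, 98.9 and 121 CPM in control females. In males Foxp1 had 99.8, 163, 136, 113 and 70.8 CPM in susceptible and 123, 151, 132, 178 and 119 CPM in control libraries. Groups overlapped in both sexes. An unadjusted interaction p under 0.05 was held by 5 of the 25 genes (20%), all with females higher, against 4.72% of all genes.

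Thalamic neuron markers had the reverse signs in 17 of 21 members, with a median of -0.47 in females and 0.64 in males. Slc17a6, the glutamate transporter of thalamic and hypothalamic neurons, had 76.4, 33.4, 351, 224 and 13.8 CPM in susceptible and 454, 346, 261, 112 and 19.6 CPM in control females. In males Slc17a6 had 58.9, 59.9, 58.1, 61.1 and 334 CPM in susceptible and 173, 22.7, 46.7, 16.98 and 31.2 CPM in control libraries. Its high values stood in 2 susceptible female, 3 control female, 1 susceptible male and 1 control male library. Of the 21 genes, 1 had an unadjusted interaction p under 0.05 (4.76%), with females lower, against 3.55% of all genes. The median difference of -1.10 turned to 0.13 without susceptible male library 5 and to 1.23 without the Pmch libraries. With the region score as covariate, which is built in part from this same list, it was 0.41. It was -1.97 without susceptible female library 3 and -0.41 without the Ttr libraries. The summed level lay between 1412 and 4347 CPM in susceptible and between 1604 and 3720 CPM in control females, and between 1493 and 4128 CPM in susceptible and between 1469 and 2263 CPM in control males, with 1 member at 0 in some library.

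Hypothalamic peptide genes were negative in females and positive in males for 11 of 14 members. Pmch, the melanin-concentrating hormone of the lateral hypothalamus, had 0.396, 0.186, 0.241, 8.35 and 0.216 CPM in susceptible and 118, 23.6, 11.2, 0.445 and 0.308 CPM in control females. In males Pmch had 0.203, 0.198, 0.1896, 0.432 and 23.5 CPM in susceptible and 0.427, 0.789, 0.269, 0.0574 and 0.187 CPM in control libraries. Only 5 of the 20 libraries held more than 1 CPM, 1 of susceptible females, 3 of control females and 1 of susceptible males. The median difference of the list, -1.35, was -1.61 without those 5 libraries, -0.15 without the Ttr libraries and -1.99 without libraries over either limit. It was -2.94 without susceptible female library 4, -2.62 without control male library 1, -3.18 with limma voom and -0.84 with the region score as covariate. Over 100 CPM of Ttr were held by 2 libraries each of susceptible females, control females and susceptible males and by 1 of control males.

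These markers were summarised in a region score, in which the thalamic list's mean log2 CPM is taken from that of the striatal list. It averaged 1.78 ± 1.86 in susceptible and 0.19 ± 2.03 in control females, and 1.89 ± 1.72 in susceptible and 2.50 ± 0.92 in control males (SD, n = 5 each). The score thus had a positive difference between the female groups and a negative one between the male groups, as the striatal, immediate early and clock lists had, with overlap in both sexes. With it as covariate, edgeR called 0 genes and 518 (3.62%) had an unadjusted interaction p under 0.05, against 1185 without it. The median difference of the striatal list, from which the score is built, was 0.48 with it against 1.11 without it.

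**Figure D4:**
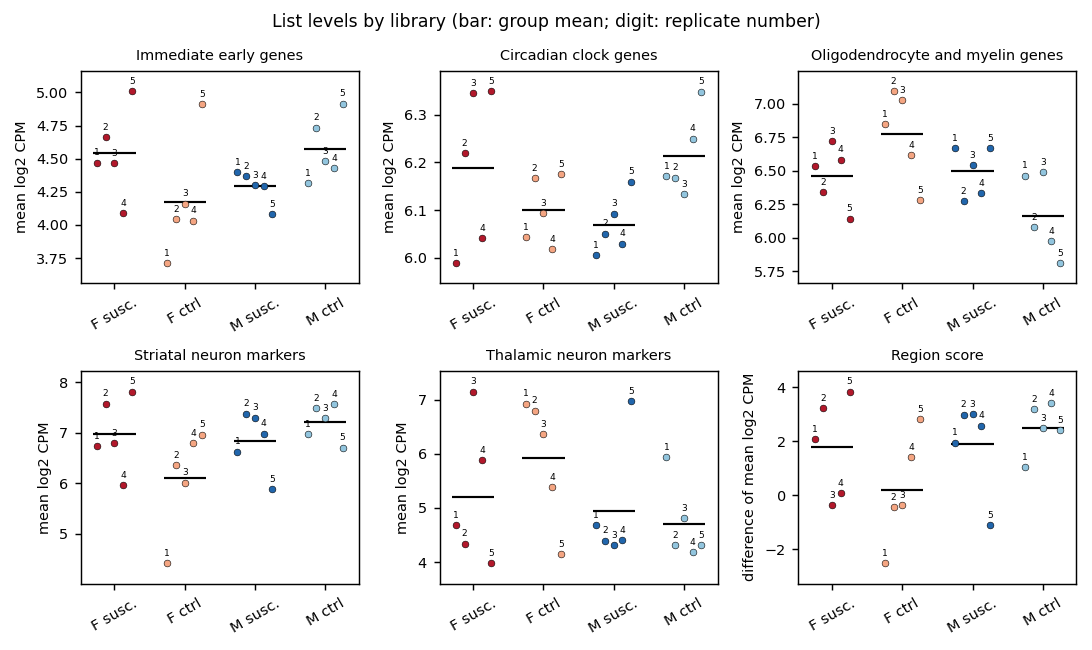
Mean log2 CPM of 5 gene lists and the region score (y axes) in each library, with susceptible females, control females, susceptible males and control males from left to right, digits for replicate numbers and bars for group means. Control female library 1 and susceptible male library 5 lie at the bottom for the striatal list and the region score of their groups, and the susceptible and control libraries overlap in most panels.

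**Figure D5:**
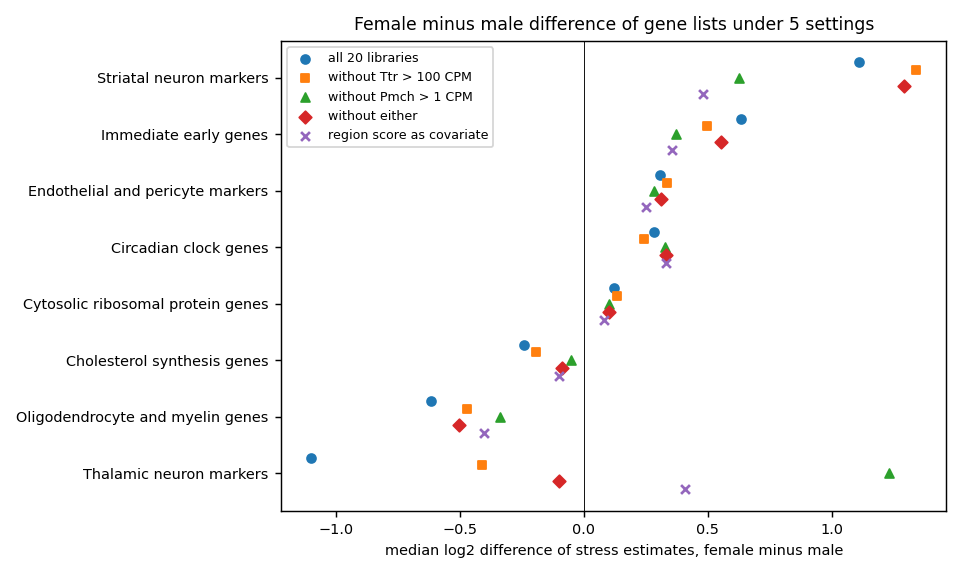
Median log2 difference of stress estimates, female minus male (x axis), of 8 gene lists in all 20 libraries, without libraries over 100 CPM of Ttr, without libraries over 1 CPM of Pmch, without either, and with the region score as covariate. The clock, endothelial and ribosomal medians stay above 0 in all 5, the myelin and immediate early medians lie nearer to 0 in the other 4 than in all 20 libraries, and the thalamic median crosses 0. The region score is itself built from the striatal and thalamic lists.

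Vascular genes were mostly positive in females and negative in males, in 14 of 24 endothelial and pericyte markers with 1 in reverse. The medians were 0.08 in females and -0.26 in males. Vwf, the clotting factor of endothelium, averaged 15.1 ± 4.23 CPM in susceptible and 13.7 ± 2.24 CPM in control females, and 15.9 ± 3.53 CPM in susceptible and 30.1 ± 9.96 CPM in control males (SD, n = 5 each). Control males were the high group, with 4 of 5 libraries above all others, and control male library 4 at 13.5 CPM lay among them. Its difference was 1.05 ± 0.34. The summed level of the 24 genes lay between 413 and 610 CPM in susceptible and between 458 and 524 CPM in control females, and between 504 and 741 CPM in susceptible and between 482 and 787 CPM in control males. Control females and males differed in 5 of the 24 (edgeR), Vwf, Eng, Pecam1, Slc2a1 and Ly6c1, all lower in females, as were 0.265% of all genes. The last 2 were chosen after their values were seen. Slc2a1, the glucose transporter of the blood-brain barrier, was also the 1 gene called between susceptible females and males, and its interaction was -0.08 ± 0.11. Meningeal and fibroblast markers instead had the same sign in both sexes, negative in 20 of 23.

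Transmitter receptor genes had both directions. Of 21 GABA receptor and synthesis genes, 6 were negative in females and positive in males and 4 the reverse, with a median difference of 0.01 whose sign changed between settings. Gabrb1 and Gabrb2, beta subunits of the GABA-A receptor, differed by -0.45 ± 0.19 and -0.63 ± 0.28. Of 33 glutamate receptor and scaffold genes, 18 were positive in females and negative in males, with a median of 0.20 that was -0.02 with the region score as covariate, 0.10 without control male library 4, 0.09 without susceptible female library 2 and 0.11 without susceptible female library 5. Grik5 and Grin1, a kainate and an NMDA receptor subunit, differed by 0.49 ± 0.20 and 0.27 ± 0.12.

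Peptide, steroid and stress genes had both directions. Of 39 stress peptides and receptors, 14 were negative in females and positive in males and 10 the reverse, with a median difference of -0.14 that ranged from -0.33 without susceptible female library 1 to 0.09 without the Ttr libraries. Ntsr1, a neurotensin receptor, differed by -0.78 ± 0.30, and Tac1, the substance P precursor that striatal neurons also make, by 1.28 ± 0.60. Of 11 sex steroid genes, 6 were negative in females and positive in males and 3 the reverse. Srd5a1, a 5-alpha reductase that makes neurosteroids, averaged 7.89 ± 1.09 CPM in susceptible and 9.46 ± 1.79 CPM in control females, and 8.55 ± 0.848 CPM in susceptible and 6.52 ± 1.31 CPM in control males (SD, n = 5 each) and differed by -0.65 ± 0.21. Gper1, a membrane estrogen receptor, differed by 0.70 ± 0.26, and Esr1, the nuclear estrogen receptor, by -0.97 ± 0.64 with 1 susceptible female library at 21.9 CPM. Of 11 corticosteroid receptor and co-chaperone genes, 6 were negative in females and positive in males, and Hsp90aa1, the chaperone that holds the receptor, differed by -0.33 ± 0.16.

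Ribosomal and oxidative phosphorylation genes had small medians, and interferon and antigen presentation genes a larger one. Of 76 cytosolic ribosomal protein genes, 50 were positive in females and negative in males, with a median difference of 0.12 that was 0.04 without susceptible female library 1 and 0.08 with the region score. Of 71 nuclear genes of oxidative phosphorylation, 12 had that pattern and 11 the reverse, with a median of -0.01. Ndufaf2, an assembly factor of complex I, averaged 11.6 ± 1.38 CPM in susceptible and 11.3 ± 0.652 CPM in control females, and 11.7 ± 1.03 CPM in susceptible and 8.56 ± 1.001 CPM in control males (SD, n = 5 each), and its male groups did not overlap. Of 24 interferon and antigen presentation genes, 11 were positive in females and negative in males, with a median of 0.22 that lay between 0.03 and 0.42 over the other settings and left-out libraries. H2-D1, a class I histocompatibility gene, differed by 0.38 ± 0.18.

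The remaining lists gave fewer opposite signs or rested on few libraries. Over all autosomal genes, 29.9% were positive in females and negative in males and 25.3% the reverse. Of 21 glucocorticoid-responsive genes, 8 were positive in females and negative in males and 1 the reverse, with a median difference of 0.22 that was -0.01 without control male library 5, 0.09 without susceptible male library 1, 0.14 without susceptible female library 1 and 0.35 without the Pmch libraries. Of 26 synaptic vesicle genes, 8 were negative in females and positive in males and 5 the reverse, and of 24 heat shock genes 8 and 2. Canx, an endoplasmic reticulum chaperone, differed by -0.30 ± 0.12, and its male groups did not overlap. Of 16 subpallial GABA neuron factors, which mark the BNST and striatum alike, 5 were positive in females and negative in males and 11 were positive in both. Six3, a striatal factor of that list, differed by 0.47 ± 0.16. Of 20 cortical and hippocampal markers, 8 were positive in females and negative in males and 3 the reverse, and their median of 0.70 was 0.09 without susceptible female library 5. Of 16 choroid plexus and ependymal markers, 6 were negative in females and positive in males and 1 the reverse, and their median ranged from -1.62 to 1.78 over settings and left-out libraries. All 4 red cell genes were negative in both sexes, and all 13 mitochondrially encoded genes, which are not autosomal, had a positive difference, with a median of 0.34 that was 0.17 with the region score, 0.18 without the Pmch libraries and 0.52 without the Ttr libraries.

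Sgk1 and Crh, which stress is known to affect, had the same sign in both sexes. Sgk1, a kinase induced by glucocorticoids, had 147, 117, 158, 125 and 118 CPM in susceptible and 106, 101, 77.7, 99.9 and 92.9 CPM in control females. In males Sgk1 had 148, 166, 192, 181 and 237 CPM in susceptible and 124, 106, 142, 164 and 119.6 CPM in control libraries. The female groups did not overlap. Its log2 fold change, susceptible over control, was 0.48 ± 0.13 in females and 0.49 ± 0.13 in males, a difference of -0.02 ± 0.19. Its interaction had an adjusted p of 0.982 (edgeR), which does not show that the sexes respond alike. Crh, the peptide that starts the hormonal stress response and is also made in the BNST, averaged 7.399 ± 3.56 CPM in susceptible and 6.08 ± 2.07 CPM in control females, and 11.5 ± 1.696 CPM in susceptible and 7.24 ± 1.83 CPM in control males (SD, n = 5 each). The log2 fold changes of Crh, susceptible over control, were 0.29 ± 0.28 in females and 0.67 ± 0.28 in males, -0.38 ± 0.39 apart. Its male groups did not overlap.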

How the data were processed

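The authors deposited raw counts of reads per gene for 20 libraries, made from poly(A)-selected RNA and paired-end Illumina sequencing, per the labels' protocols. HISAT2, featureCounts and mm10 are named, without versions, per the submitters' processing notes. Not given in the sources used here are the strand setting, the annotation and the handling of multi-mapping reads. Groups came from sample titles, and sex is given under the genotype label.

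Counts were filtered with filterByExpr, scaled by TMM and fitted with edgeR 4.0.16 (quasi-likelihood, robust) in R 4.3.3, with 1 mean per group over all 14884 genes passing. P-values were adjusted by Benjamini-Hochberg over all 14884 genes, and the 14322 autosomal ones are reported. CPM use TMM library sizes. Positions are from GENCODE M21 (GRCm38), which matched 19206 of 19214 genes. The fits were tested on simulated data. Alternatives were DESeq2 1.42.0 (Wald test and size factors), limma 3.58.1 voom with quality weights, sva 3.50.0 (1 surrogate variable), a GC and length trend (mgcv 1.9.3), other filters, a replicate block, library exclusion by Ttr (over 100 CPM) or Pmch (over 1 CPM), the region score as covariate and each library left out.

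Named genes were the 12 with the smallest interaction p in each direction, up to 4 per list, and Sgk1 and Crh. The 12 came from autosomal genes with opposite signs, a mean of at least 1 CPM and a symbol that is no predicted gene model. The members and lists were chosen with earlier results of these data known. No 2 libraries of a group matched within sampling noise. Single-gene results for some genes that this rule selects are not reported here, though they count in the list totals.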

Additional observations from a re-analysis of the deposited data

Results flagged for a closer look

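A test for a library far from the rest of its group flagged 64 of 512 groups (128 named genes in 4 groups of 5 libraries), where chance flags about 1 in 20 groups. Values are CPM, and single libraries are named because they carry several genes. Explanations were not tested.

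Susceptible female library 1 had Mbd6 at 98.8, Rpl7a at 186 and Rps23 at 189 above the rest of the group. Susceptible female library 3 had Pip4k2a at 112, Enpp2 at 1299 and Aqp1 at 21.5 above the rest of the group. Susceptible female library 4 had Sstr1 at 19.5, Esr1 at 21.9, Rasgrf2 at 206, Pmch at 8.35, Hcrt at 4.34, Canx at 532 and H2-D1 at 45.9 above the rest of the group, and Spink10 at 0.946 below the rest of the group. Susceptible female library 5 had Tbc1d10c at 3.25, Ccdc92b at 49.2 and Neurod6 at 25.1 above the rest of the group, and Six3 at 57.03 below the rest of the group. Control female library 1 had Pkd2l1 at 5.78, Pmch at 118 and Hdc at 33.9 above the rest of the group, and Rps23 at 118 below the rest of the group. Control female library 2 had P2rx3 at 2.36 and Hba-a2 at 6.11 above the rest of the group. Control female library 3 had Mt1 at 101 below the rest of the group. Control female library 4 had Rpl27a at 179 above the rest of the group. Control female library 5 had Shisa2 at 8.43, Per1 at 188, Npas4 at 36.2, Gper1 at 2.71, Dkk3 at 116 and Neurod6 at 16.2 above the rest of the group, and Map3k1 at 20, Ikzf2 at 5.54, Neu4 at 12.4 and Gria4 at 94.7 below the rest of the group. Susceptible male library 2 had Lhfpl3 at 52.8 and Gabrb2 at 107 below the rest of the group. Susceptible male library 4 had Ifitm3 at 11.4 above the rest of the group, and Tmem141 at 8.28 below the rest of the group. Susceptible male library 5 had Hsp90aa1 at 1311, Prlr at 69.2, Enpp2 at 1098, Aqp1 at 10.7, Gbx2 at 14.6, Slc17a6 at 334, Ntng1 at 212, Pmch at 23.5 and Hcrt at 12.2 above the rest of the group, and Meis2 at 132 and Dlx5 at 11.9 below the rest of the group. Control male library 1 had Ntsr1 at 9.15, Sstr1 at 14.3, Esr1 at 11.2, Gbx2 at 6.59, Slc17a6 at 173 and Ntng1 at 89.9 above the rest of the group. Control male library 2 had H2-Q4 at 9.04 and H2-D1 at 58.9 above the rest of the group. Control male library 4 had Pecam1 at 16.5 below the rest of the group. Control male library 5 had Ciart at 25.9, Enpp2 at 1029 and Aqp1 at 6.67 above the rest of the group, and Rarres2 at 1.37 below the rest of the group.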

How the results depend on the processing

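No autosomal gene was called in any of 33 other settings or left-out libraries, where the smallest adjusted p lay between 0.16 and 0.998. The 24 genes chosen above by smallest p and opposite signs kept their direction in all of them, on libraries that had served to choose them. Those with an unadjusted p under 0.05 in both sexes (edgeR) fell from 15 to 2 without the Ttr libraries and to 1 without the Pmch libraries. Of 130 named genes, 12 turned sign in some setting.

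The share of opposite signs, 55.2%, was 53.7% with limma voom, 52.1% without a count filter, 43.6% with 1 surrogate variable, 60.6% with the GC and length trend removed, 60.0% with voom on top of that, 53.8% without the Ttr libraries, 52.3% without the Pmch libraries, 57.3% without either and 42.5% with the region score. It lay between 48.6% and 58.3% with single libraries left out. The 30 opposite genes with an unadjusted p under 0.05 in both sexes became 153 with limma voom, 18 with 1 surrogate variable, 13 without the Ttr libraries, 194 with voom and the GC trend removed and 147 without libraries over either limit, and between 17 and 124 with single libraries left out. The gene without overlap in both sexes was lost (0) with a filter of 1 CPM in 5 libraries, and the count lay between 0 and 3 with single libraries left out. Voom with the GC trend removed and the setting without libraries over either limit were chosen after seeing the data.

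Whether equal library numbers pair the samples is not settled by the correlations. Of 10 same-numbered pairs of a susceptible and a control library of the same sex, 5 correlated above 0.1 (from -0.436 to 0.642). In 2 of the 10 the own number was the best match. Equal numbers were not compared between the sexes. With the replicate number as a block, 0 genes were called, 40 genes were opposite in both sexes and the share of opposite signs was 55.2%.

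Interaction estimates of opposite sign to those with all libraries were Sgk1 0.0319 with limma voom, Siglech -0.00983, Enpp2 0.65, Aqp1 1.22, Ntng1 0.12, Hdc 0.0146 and Sgk1 0.0765 with 1 surrogate variable, Siglech -0.0582, Enpp2 2.03, Aqp1 4.46, Gbx2 0.26, Slc17a6 0.81, Ntng1 1.15, Hdc 0.80 and Sgk1 0.0849 without the Pmch libraries, Aqp1 0.55 without the Ttr libraries, Siglech -0.0470, Enpp2 0.65, Aqp1 1.27, Ntng1 0.24, Hdc 0.26 and Sgk1 0.10 with the region score, Sgk1 0.0231 with voom and the GC trend removed and Aqp1 0.74 and Hdc 0.33 without libraries over either limit. With single libraries left out, 8 of these genes turned sign, with Hba-a2 between -0.20 and 0.69 (9 of 20 reversed), Hdc between -1.65 and 0.26 (1 of 20 reversed), Sgk1 between -0.12 and 0.0871 (9 of 20 reversed), Hba-a1 between -0.25 and 0.39 (5 of 20 reversed), Hbb-bs between -0.0650 and 0.50 (2 of 20 reversed), Itgam between -0.32 and 0.0440 (1 of 20 reversed), Enpp2 between -1.63 and 0.13 (1 of 20 reversed) and Aqp1 between -2.92 and 0.70 (1 of 20 reversed). The causes were not tested. Without the Pmch libraries, 2 control female libraries remain. Without libraries over either limit, the females left are control libraries 4 and 5 and susceptible libraries 2 and 5. At 14637636 to 17862840 counts a library, genes near 1 CPM have few counts, and 5 libraries a group leave a median standard error of 0.17 on the log2 scale.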
